A study of Mus musculus with 6 samples.

Results

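Calcium store release and entry genes encode the channels that let calcium out of the endoplasmic reticulum, the pump that returns it, the sensors that report an empty store, and cation channels of the plasma membrane. Itpr1, Itpr2, Itpr3, Ryr2, Ryr3, Atp2a2, Stim1, Stim2, Trpc1 and Trpc2 were chosen, and every probe set was taken whose array annotation gives one of these symbols alone. That gave 26 of the 45101 probe sets of the array, which cover 9 of the 10 genes, of 18194 genes named on the array. Itpr1 was not analysed here. Of the 26 probe sets, 21 had a mean intensity of at least 40 over all arrays and were tested, and 5 were dimmer.

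The ganglion cell layer was cut by laser capture from 3 crush eyes, taken 6 hrs after the optic nerve was crushed with forceps, and from 3 control eyes, the uninjured fellow eyes. The mice were C57BL/6J males with no transgene or other agent named, and their age is not given in the sources used here. About 6000 cells were captured per eye, their RNA was amplified and labeled with biotin, and each eye had 1 Affymetrix Mu430 v2.0 array. Values are signal intensities in arbitrary units, which can be set against each other for 1 probe set but not between probe sets.

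When a receptor at the surface activates phospholipase C, the enzyme makes inositol trisphosphate (IP3), which opens IP3 receptors in the membrane of the endoplasmic reticulum. Ryanodine receptors in the same membrane open when cytosolic calcium rises, and the SERCA pump moves calcium back into the lumen. As the lumen empties, STIM proteins in its membrane gather near the plasma membrane and open entry channels there, a process known as store-operated entry. In retinal ganglion cells (RGCs) calcium from stores adds to that entering through voltage-gated channels and glutamate receptors.

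Each crush eye was paired with the control eye of the same number, intensities were compared on a log2 scale in limma, and p values are given without adjustment unless stated. A log2 fold change is that of crush over control, and an unadjusted p under 0.05 is called nominal here. Nothing in the labels says that the 3 pairs are 3 separate mice, so the p values speak for these samples only. In limma each probe set's spread is drawn toward that of all tested, so an SE is not that of its pairs alone. RGC markers were present on all arrays. Over 8 of 9 listed genes their summed intensity was 57952, 46347 and 53526 in crush eyes 1, 2 and 3. In control eyes 1, 2 and 3 it was 51881, 53871 and 52969. Of the 8 genes 3 were higher, 5 lower and 0 nominal. Their median log2 differences in pairs 1, 2 and 3 were 0.198, -0.222 and -0.0083. Median intensity per array was 131.2 to 153.9 after crush and 141.1 to 142.7 in controls. In a principal component analysis, crush eye 2 separated from the other arrays on the leading axis (44.2% of variance). Crush eye 3 did so on the one after it (27.8%). On crush eye 2, 1331 tested probe sets lay more than 1 log2 unit below every other array and 27 above. The other arrays had 4 to 57 below, and of them crush eye 3 had most above, 255. For Actb the 3′ signal over the 5′ signal was 7.21 to 10.5 after crush and 6.65 to 8.80 in controls. For Gapdh it was 4.62 to 7.54 after crush, highest on crush eye 3, and 5.13 to 6.60 in controls.

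Markers of other cells in or near the layer also lay higher or lower after crush, mostly without a nominal difference. Astrocyte markers summed to 5766 to 6737 after crush and 4683 to 5773 in controls, with 3 of 3 tested genes higher and 2 nominal. A sum is weighted toward its brightest gene, here S100b with 3611 to 4568 over all arrays, while the nominal genes were Gfap and Pdgfra. Pigment epithelium markers summed to 2267 to 8675 after crush and 854 to 1334 in controls, with 3 of 3 tested higher and 2 nominal, while the defining marker Rpe65 had an intensity of 1.00 to 10.2 after crush and of 1.00 in every control eye. The sum of 8675 was that of crush eye 3, against 2811 in crush eye 1 and 2267 in crush eye 2. Of that 8675, Ttr gave 7355. Rdh5 (872) and Lrat (441) were also highest on crush eye 3, while Rpe65 was 7.61 there, against 10.2 on crush eye 2. Bipolar cell markers summed to 10699 to 12705 after crush and 13197 to 15456 in controls, with 5 of 5 lower and 2 nominal. Amacrine markers summed to 28921 to 33136 after crush and 32726 to 36991 in controls (7 of 7 lower, 0 nominal), and Muller cell markers to 32362 to 35494 after crush and 33761 to 38719 in controls (6 of 7 lower, 1 nominal). Rod markers summed to 41658, 35052 and 40795 in crush eyes 1, 2 and 3, against 46181, 34242 and 25393 in control eyes 1, 2 and 3, with 6 of 6 tested higher on average and 0 nominal. Lens markers summed to 4225, 135 and 296 after crush, against 5682, 586 and 267.5 in controls (1 of 4 tested higher and 3 lower, of which 1 was nominal), so that the eyes of pair 1 held most of the lens signal. Microglia markers summed to 3353 to 4265 after crush and 3224 to 4693 in controls (4 of 6 higher, 0 nominal). Endothelial markers summed to 2275 to 3158 after crush and 2705 to 2994 in controls (2 of 3 tested higher, 0 nominal). For smooth muscle and pericytes it was 9749 to 10971 after crush and 10289 to 11063 in controls (5 of 6 tested lower, 0 nominal). The part of these cells in the values of the calcium genes was not tested. For any gene below, fewer cells of a type and less RNA per cell cannot be told apart.

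At 6 hrs after crush, the log2 fold changes of the tested calcium store probe sets ran from -0.53 to 0.78. No gene had more than 1 probe set with a nominal difference. Nominal differences were found for 4 of the 21 tested probe sets, 1 each of Itpr2, Ryr2, Stim1 and Trpc2. They make up 19.0% of the tested probe sets, against 7.68% of all 33169 probe sets tested. Of the 4, 2 were higher after crush (against 5.16% of all tested) and 2 were lower (against 2.51%). None of the 4 was the brightest probe set of its gene, which for Trpc2 rests on means over all arrays of 91.5 and 85.4. Over the brightest probe set of each gene, 0 of 9 were nominal, where 5.03% of 15101 genes were, and 8 of the 9 were above 0, or 6 after quantile normalization, which turned Stim1 and Stim2.

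After Benjamini-Hochberg adjustment 0 of the 21 passed 0.05 in limma, nor did any of the 33169 (0%), of which 2546 were nominal, and the smallest adjusted p was 0.642 for both. When limma's prior was made robust and allowed to follow intensity, 1 probe set of the array passed, which was not one of the 21, and with the methods' t-test 0 did. The median log2 fold change of the 21 probe sets was 0.07, against -0.0057 over all probe sets tested. By sign alone 13 were above 0 and 8 below. In 5 probe sets the crush eye was higher in every pair, and in 3 it was lower in every pair. The shares of all tested probe sets with such signs were not counted, so these counts say nothing particular to the 21. The study's own criteria ask for a nominal p, group means whose ratio exceeds 1.2 and means more than 80 units apart. With limma's p in place of the paired test 2 of the 21 met them, Itpr2 1424833_at and Stim1 1436945_x_at, against 3.12% of all tested. In 5 of the 21 the 3 crush values did not overlap the 3 control values, against 12.5% of all tested. Probe sets of a gene were read on the same arrays and are not replicates, and where on the transcripts each one lies was not checked here.

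**Figure D1:**
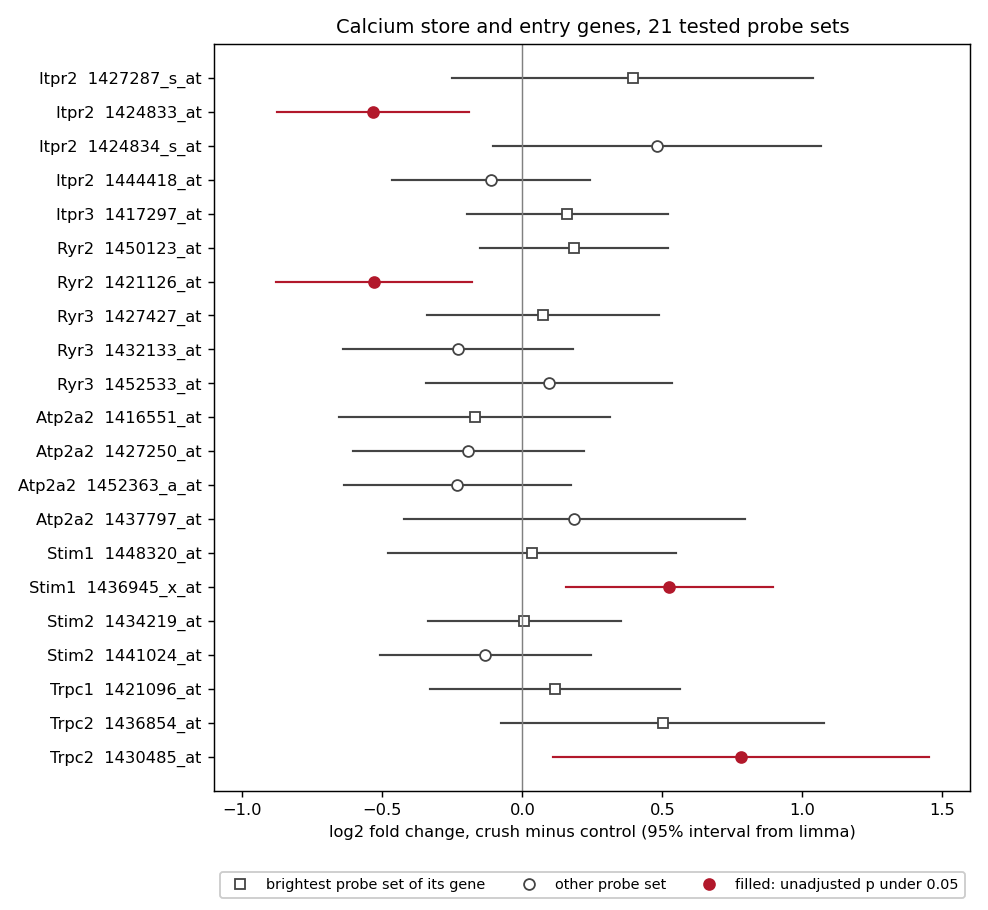
Log2 fold change of crush over control on the x axis for each of the 21 tested probe sets, with limma's 95% interval as a bar. Squares mark the brightest probe set of each gene and circles the others, and filled red symbols are nominal. The 4 red symbols belong to 4 different genes, and each of those genes has a square whose interval includes 0.

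Itpr2 encodes the type 2 IP3 receptor, an IP3-gated release channel, and lies on chromosome 6 from 146108299 to 146502258 (GRCm38.p6). It has 6 probe sets, of which 4 were tested. Probe set 1424833_at was lower after crush, with intensities of 189, 180.0 and 218 in crush eyes 1, 2 and 3, against 266, 276 and 306 in control eyes 1, 2 and 3. The highest crush value lay below the lowest control value, so the groups did not overlap. The means were 196 ± 19.5 after crush and 283 ± 21.1 in controls (SD, n = 3 each). The log2 fold change was -0.53 (SE 0.13, nominal, adjusted p = 0.642 from limma), and the pairs gave -0.49, -0.62 and -0.49. Without pair 2 it was -0.49 (nominal), without pair 3 -0.55 (nominal), and without pair 1 -0.56 (not nominal). This was the smallest p of the 21 probe sets. Itpr2 and Trpc2 are among the genes that the study listed from these same arrays, so their values are no independent evidence of a direction. The study lists Itpr2 as lower, and of its tested probe sets only 1424833_at was lower with a nominal p (ratio of means 0.69). The study's fold change for Trpc2 equals, once rounded, the ratio of means of 1424492_at (1.24), a probe set shared with Xndc1. For the tested probe sets of Trpc2 alone the ratios were 1.47 and 1.74. These are matches of values only.

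The brightest probe set of Itpr2, 1427287_s_at, ran the other way in most pairs. It had 619, 735 and 822 in crush eyes, against 741, 522 and 426 in control eyes. Crush eye 1 lay below control eye 1, and the ranges of the groups overlapped. The control values were ordered by eye as were the rod marker sums, whose part in them was not tested. The log2 fold change was 0.39 (SE 0.25, adjusted p = 0.688 from limma). Without pair 1 it was 0.72 (nominal), without pair 2 0.34 and without pair 3 0.12. Probe set 1424834_s_at was likewise lower in pair 1 and higher in pairs 2 and 3, with 162, 217 and 179 after crush, against 176, 118 and 112 in controls. Its log2 fold change was 0.48 (SE 0.23, adjusted p = 0.648 from limma), with -0.12, 0.88 and 0.68 in the 3 pairs. In Affymetrix naming the suffix s marks probes that are shared between transcripts of more than 1 gene. The difference of 1424834_s_at from 1424833_at averaged 1.01 ± 0.58 on the log2 scale over the pairs (SD, n = 3), and that of 1427287_s_at from 1424833_at averaged 0.93 ± 0.63. Both differences were above 0 in each pair. The probe sets were chosen by their log2 fold change, p or brightness in these data, and the lower was subtracted from the higher. A mean above 0 was thus fixed in advance, here and for Ryr2, Stim1 and Trpc2 below. The exact two-sided sign-flip p was 0.25, the smallest that 3 pairs allow, so this test could not decide whether the probe sets differ. On the other tested probe set, 1444418_at, crush over control was -0.11 in log2 (adjusted p = 0.825 from limma). The remaining probe sets 1427693_at and 1421678_at averaged 26.7 and 14.9 after crush and 11.6 and 14.5 in controls, under the minimum for a test.

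The promoter windows of Itpr2, Stim1, Trpc2 and Xndc1 are shown because Itpr2 and Stim1 each had a probe set past the study's criteria, while Trpc2 and Xndc1 share a probe set described below. Each runs from 250 bases before to 50 bases after the start site in RefSeq (GRCm38.p6), on the strand of the gene. Capitals mark matches on either strand to the GC box GGGCGG, the CCAAT box, the cyclic AMP core TGACG, the STAT site TTCNNNGAA and the NFAT core GGAAAA. The window of Itpr2 is chr6:146502174-146502473 on the minus strand, and those of Stim1, Trpc2 and Xndc1 are chr7:102267569-102267868, chr7:102082866-102083165 and chr7:102065241-102065540 on the plus strand.
Itpr2: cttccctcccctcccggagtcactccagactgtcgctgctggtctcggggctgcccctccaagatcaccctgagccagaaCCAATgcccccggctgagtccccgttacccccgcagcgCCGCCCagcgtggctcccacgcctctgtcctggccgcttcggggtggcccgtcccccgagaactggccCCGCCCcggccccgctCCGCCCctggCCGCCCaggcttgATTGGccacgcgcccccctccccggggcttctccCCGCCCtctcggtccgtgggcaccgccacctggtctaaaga
Stim1: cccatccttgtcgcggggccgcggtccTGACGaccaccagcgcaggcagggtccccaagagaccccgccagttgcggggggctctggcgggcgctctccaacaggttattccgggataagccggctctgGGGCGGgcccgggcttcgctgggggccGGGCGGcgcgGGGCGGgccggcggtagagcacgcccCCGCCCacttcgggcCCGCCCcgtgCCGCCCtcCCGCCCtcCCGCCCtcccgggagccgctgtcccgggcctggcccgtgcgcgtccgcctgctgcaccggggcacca
Trpc2: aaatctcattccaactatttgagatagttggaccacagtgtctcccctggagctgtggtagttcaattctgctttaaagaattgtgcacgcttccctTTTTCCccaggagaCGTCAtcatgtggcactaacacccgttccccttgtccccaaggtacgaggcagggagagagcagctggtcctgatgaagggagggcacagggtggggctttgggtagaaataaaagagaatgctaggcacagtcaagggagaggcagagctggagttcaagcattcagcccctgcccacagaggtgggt
Xndc1: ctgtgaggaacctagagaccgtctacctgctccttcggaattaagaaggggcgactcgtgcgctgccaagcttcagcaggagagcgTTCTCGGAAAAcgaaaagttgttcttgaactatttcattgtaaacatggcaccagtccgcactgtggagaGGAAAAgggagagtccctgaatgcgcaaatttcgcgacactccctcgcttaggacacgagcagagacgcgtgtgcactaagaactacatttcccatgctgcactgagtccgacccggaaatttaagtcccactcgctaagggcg

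The Itpr2 window held 5 GC boxes and 2 CCAAT boxes, and the Stim1 window held 8 GC boxes and 1 cyclic AMP core. The Trpc2 window held no GC box, 1 cyclic AMP core and 1 NFAT core, and the Xndc1 window 1 STAT site and 2 NFAT cores, the first of which overlaps the STAT site. Of 32851 promoter windows of this length, 35.7% hold a GC box, 37.4% a CCAAT box, 20.8% the cyclic AMP core, 8.30% the STAT site and 23.4% the NFAT core. The TATA box TATAAA (13.6% of all windows), the full cyclic AMP element TGACGTCA (1.79%, which contains the core) and the AP-1 site TGANTCA (7.81%) were in none of the 4. A match is only a match of letters. The GC content of the windows was 73.3% for Itpr2, 78.7% for Stim1 and 52.3% for Trpc2, against 53.8% over all windows. The Stim1 window lies inside the annotated span of the gene, which starts at 102261514.

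Itpr3, the type 3 IP3 receptor on chromosome 17, has 1 probe set, 1417297_at, which was dim. It had 48.2, 53.9 and 56.0 after crush, against 39.0, 48.5 and 55.2 in controls. Each crush eye was above its own control eye, but the ranges overlapped, and the log2 fold change was 0.16 (SE 0.14, adjusted p = 0.751 from limma). It was 0.09 without pair 1, between 0.025 without control eye 1 and 0.28 without control eye 3 in unpaired fits, and with a floor of 64 it had no value, since all 6 intensities lay under that floor. The gene Itpr3os is annotated in overlap with this locus.

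Ryr2 on chromosome 13 encodes the ryanodine receptor best known from heart muscle, which is also widespread in brain neurons. Its brightest probe set, 1450123_at, had 1700.1, 1851 and 1905 after crush, against 1504, 1647 and 1653 in controls. All 3 crush values lay above all 3 control values. The log2 fold change was 0.18 (SE 0.13, adjusted p = 0.709 from limma), with 0.18, 0.17 and 0.20 in the pairs. With a floor of 64, with no intensity filter, or with the methods' t-test it was nominal.

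The dim probe set of Ryr2, 1421126_at, was lower after crush. It had 47.1, 52.3 and 66.0 in crush eyes, against 67.2, 81.6 and 88.9 in control eyes, with no overlap. Group means were 55.1 ± 9.80 after crush and 79.2 ± 11.0 in controls (SD, n = 3 each). The log2 fold change was -0.53 (SE 0.14, nominal, adjusted p = 0.642 from limma), with -0.51, -0.64 and -0.43 in the pairs. Without pair 2 it was -0.47 (nominal) and without pair 3 -0.58 (nominal). It was no longer nominal without pair 1 (-0.54), with a floor of 64 (-0.28), or, in unpaired fits, without crush eye 1, crush eye 2, control eye 2 or control eye 3 (-0.42, -0.50, -0.50 and -0.44). The 2 probe sets of Ryr2 differed by 0.71 ± 0.09 on the log2 scale (SD, n = 3 pairs), with an exact sign-flip p of 0.25, again the smallest possible.

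Ryr3, a ryanodine receptor of brain and other tissues on chromosome 2, showed no nominal difference on its 3 probe sets. The brightest, 1427427_at, had 639, 721 and 651 after crush, against 542, 848 and 559.6 in controls. The control values spanned those after crush, and the log2 fold change was 0.07 (SE 0.16, adjusted p = 0.908 from limma). In unpaired fits it was -0.041 without control eye 1 and 0.28 without control eye 2. Probe set 1432133_at had -0.23 (adjusted p = 0.706 from limma) and 1452533_at had 0.10 (adjusted p = 0.885 from limma).

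Atp2a2 on chromosome 5 encodes SERCA2, the calcium pump of the endoplasmic reticulum. Of its 6 probe sets 4 were tested, and the 3 brightest were below 0 on average. The brightest, 1416551_at, had 9708, 6558 and 8475 after crush, against 9311, 10049 and 8225 in controls. Crush eye 2 was the lowest of the 6 arrays, and the crush eyes of pairs 1 and 3 lay slightly above their controls. Its log2 fold change was -0.17 (SE 0.19, adjusted p = 0.802 from limma), and without pair 2 it was 0.05. Probe set 1427250_at had 3772, 2719 and 3179.8 after crush, against 3795, 3836 and 3345 in controls, a log2 fold change of -0.19 (adjusted p = 0.742 from limma). Probe set 1452363_a_at had 2180.5, 1761 and 1574 after crush, against 2099.7, 2202 and 2116 in controls, a log2 fold change of -0.23 (adjusted p = 0.700 from limma). On both of these crush eye 2 and crush eye 3 lay below every control eye. The dimmer 1437797_at had 180.2, 146 and 341 after crush, against 199, 161 and 191 in controls. Its log2 fold change was 0.19 (adjusted p = 0.833 from limma). The highest value was on crush eye 3, the array with the highest sum of pigment epithelium markers, mostly from Ttr. The probe sets 1443551_at and 1427251_at were under the minimum for a test.

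Stim1 on chromosome 7 encodes a sensor of calcium in the store lumen, which opens Orai channels when the store empties. Probe set 1436945_x_at was higher after crush, with 363, 369 and 411 in crush eyes, against 234, 294 and 268 in control eyes. The lowest crush value lay above the highest control value. The means were 381 ± 26.0 after crush and 265 ± 29.8 in controls (SD, n = 3 each), with a log2 fold change of 0.53 (SE 0.15, nominal, adjusted p = 0.642 from limma). Pairs 1, 2 and 3 gave 0.63, 0.33 and 0.62. Without pair 2 the value was 0.62 (nominal), without pair 3 0.48 (not nominal) and without pair 1 0.47 (not nominal). The suffix x marks probes that can also bind other transcripts, which limits what this probe set says about Stim1.

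The brightest probe set of Stim1 was 1448320_at. It had 701, 402 and 909.5 after crush, against 598, 552 and 723 in controls, so that crush eyes held both the lowest and the highest value. The log2 fold change was 0.03 (SE 0.20, adjusted p = 0.971 from limma), with a 95% interval from -0.48 to 0.55 and 0.23, -0.46 and 0.33 in the pairs. It was -0.02 after quantile normalization and 0.28 without pair 2, the only pair below 0. The difference between the 2 probe sets averaged 0.49 ± 0.26 on the log2 scale (SD, n = 3 pairs), above 0 in each pair (exact sign-flip p = 0.25). Stim2, a related sensor known to respond to smaller falls of store calcium, had 999, 1073 and 823 after crush on 1434219_at, against 1009, 1123 and 768 in controls. The groups overlapped almost fully, and the log2 fold change was 0.0065 (SE 0.14, adjusted p = 0.992 from limma), with a 95% interval from -0.34 to 0.35. It was -0.03 after quantile normalization. Its other probe set, 1441024_at, had -0.13 (adjusted p = 0.803 from limma).

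**Figure D2:**
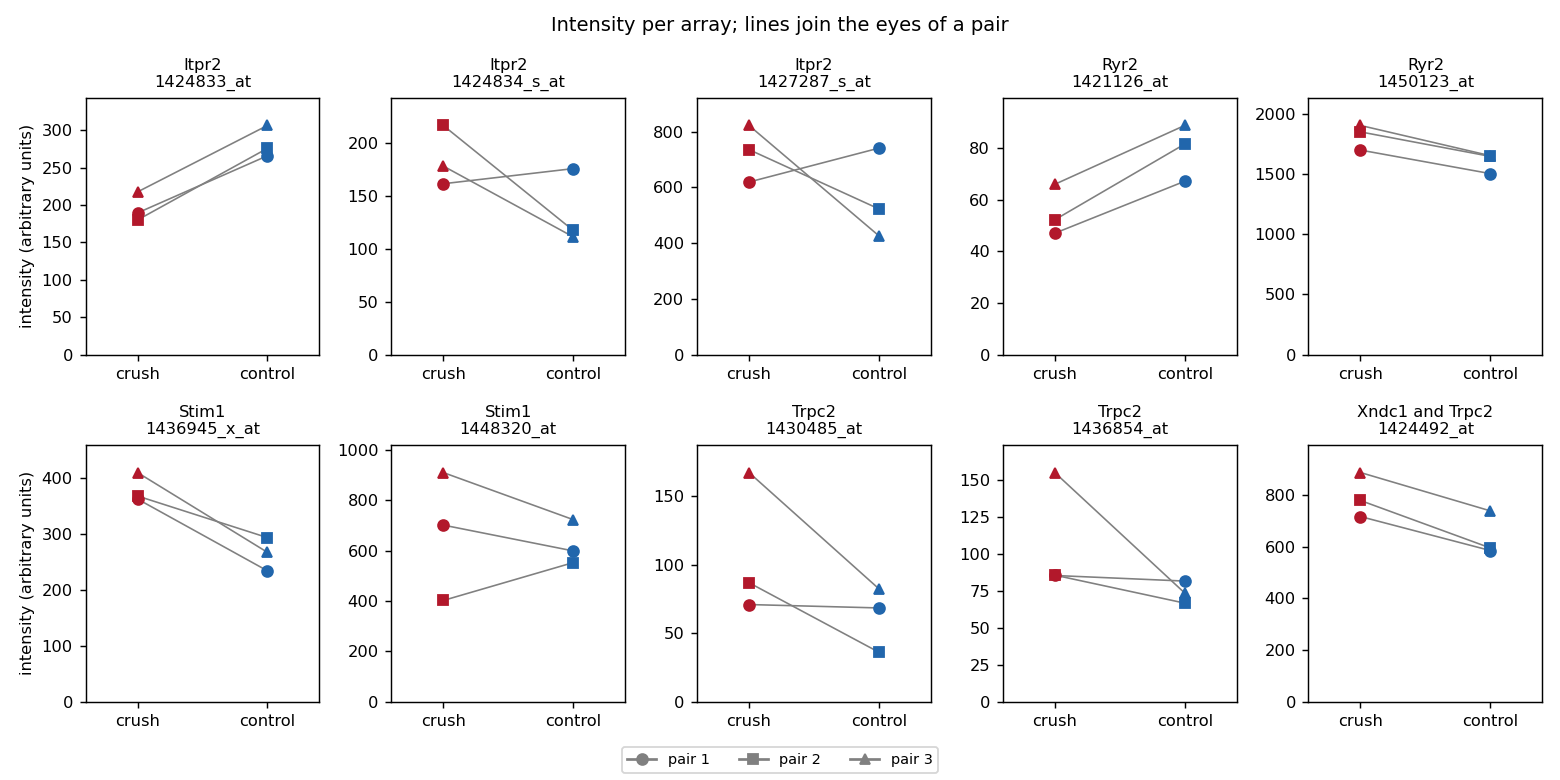
Intensity of 10 probe sets in arbitrary units, each axis starting at 0, in crush eyes (red, left) and control eyes (blue, right), with a line joining the eyes of a pair. Itpr2 1424833_at and Ryr2 1421126_at are lower in the crush eye of every pair and Stim1 1436945_x_at is higher, while of the brightest probe sets of these genes 1450123_at is higher in every pair and 1427287_s_at and 1448320_at are each higher in the crush eye of 2 of 3 pairs.

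Trpc1, a cation channel linked to phospholipase C signaling and store-operated entry, had 2679, 2624 and 2687 after crush on 1421096_at, against 2938, 2622 and 1918 in controls. The crush values were close together and within the range of the control values, which fell in the same order of eyes as the rod marker sums. Crush over control was 0.12 in log2 (SE 0.18, adjusted p = 0.856 from limma), and without pair 3 it was -0.07. The other probe set, 1421095_a_at, lay between 2.18 and 8.10 after crush and between 1.00 and 1.80 in controls, under the floor of 16 on every array.

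Trpc2 encodes a cation channel best known in mice from the sensory neurons of the vomeronasal organ. Its gene lies on chromosome 7 from 102083116 to 102096864, inside the annotated span of Xntrpc, a readthrough gene that joins Trpc2 with the upstream Xndc1. Xndc1 and Xntrpc share a promoter window in RefSeq, which starts 17625 bases before that of Trpc2. Probe set 1430485_at had 71.0, 86.9 and 167 after crush, against 68.5, 36.1 and 82.4 in controls. Crush eye 3, with the highest sum of pigment epithelium markers (mostly from Ttr), was the highest here too. The part of these markers in the value was not tested. Each crush eye was above its own control, yet crush eye 1 lay below control eye 3 and the groups overlapped. The means were 108 ± 51.7 after crush and 62.3 ± 23.8 in controls (SD, n = 3 each), with a log2 fold change of 0.78 (SE 0.26, nominal, adjusted p = 0.642 from limma). Pairs 1, 2 and 3 gave 0.05, 1.27 and 1.02. Without pair 2 it was 0.54 (not nominal), without pair 3 0.66 (not nominal) and without pair 1 1.14 (nominal). Without the replicate block it was no longer nominal, nor in any unpaired fit that left out 1 array, where it ran from 0.42 without crush eye 3 to 1.04 without crush eye 1.

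Probe set 1436854_at, by a narrow margin the brightest of Trpc2, had 85.6, 85.8 and 155 after crush, against 81.8, 66.8 and 73.7 in controls. The groups did not overlap, with crush eye 3 far above the rest. On the log2 scale the difference was 0.50 (SE 0.23, adjusted p = 0.642 from limma), and without pair 3 it was 0.21. It was 0.72 (nominal) without pair 1 and 0.64 (nominal) without crush eye 2 in an unpaired fit. The 2 probe sets of Trpc2 differed by 0.28 ± 0.54 (SD, n = 3 pairs, exact sign-flip p = 1). Another 2 probe sets carry Trpc2 together with Xndc1 or Xntrpc in the annotation and were not counted. The one shared with Xndc1, 1424492_at, had 717, 779 and 887 after crush, against 585, 595 and 739 in controls. It was higher in the crush eye of every pair, by 0.29, 0.39 and 0.26, with a log2 fold change of 0.32 (SE 0.13, adjusted p = 0.642 from limma). Transcripts of Trpc2 and of its overlapping neighbours cannot be told apart on it. The one shared with Xntrpc, 1425672_a_at, was under the floor on all arrays.

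**Figure D3:**
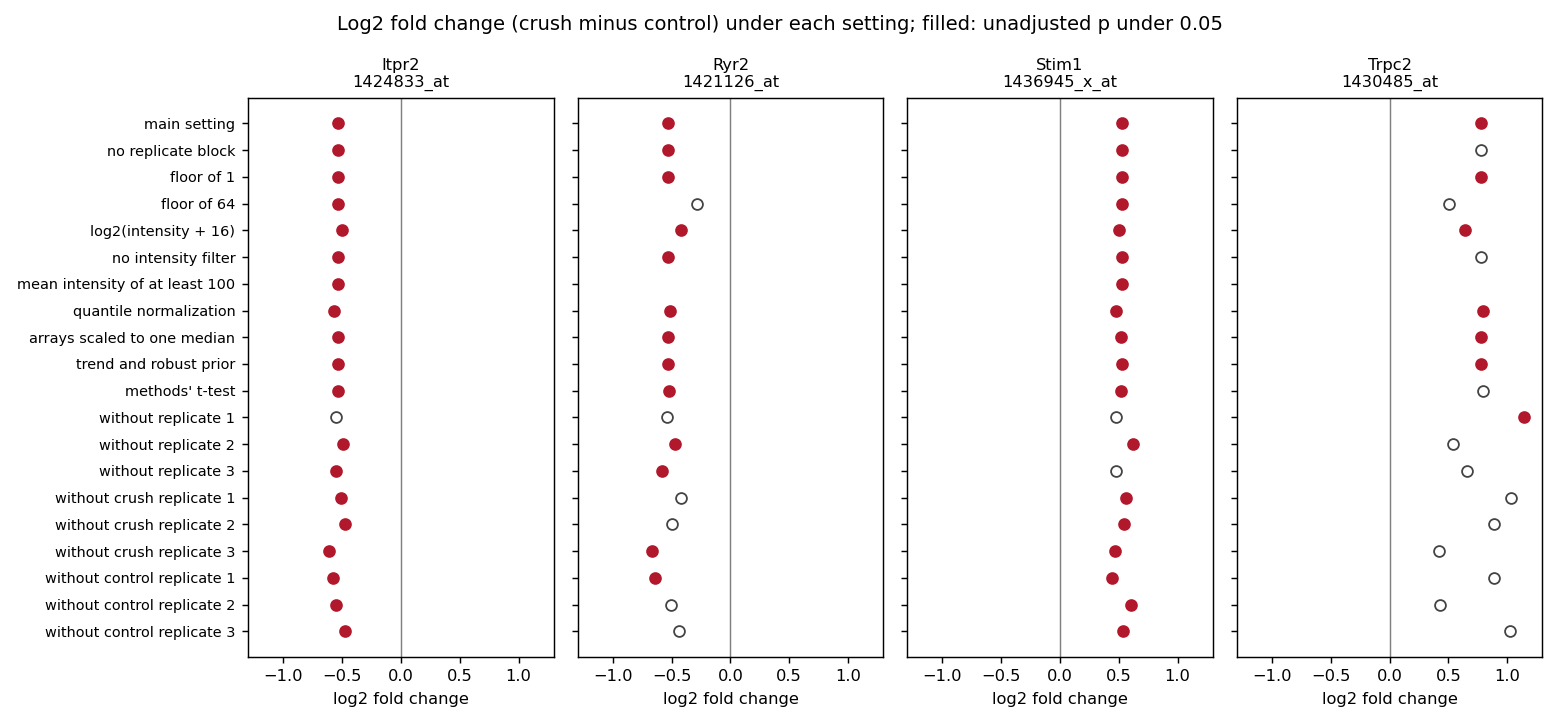
Log2 fold change of crush over control for the 4 nominal probe sets under the main setting and 19 alternatives, where filled symbols are nominal and a missing symbol means that the probe set was not tested. Itpr2 1424833_at lies between -0.61 and -0.47 and is open only without pair 1, while Trpc2 1430485_at lies between 0.42 and 1.14 and is open in 12 of its 18 alternatives.

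For the 2 probe sets with the smallest p, the tested probe sets of other genes with the highest Pearson r over the 6 log2 values were listed. The points share 6 arrays and 3 pairs, so that high values are common among so many candidates. For Itpr2 1424833_at these were AU020206 (r = 0.998), Itga5 (r = 0.997), an integrin subunit, and Ankrd6 (r = 0.993), of 26771 candidates. Their log2 fold changes were -0.24, -0.37 and -0.43. For Ryr2 1421126_at they were Hmgxb4 (r = 0.991), the RNA-binding protein gene Celf1 (r = 0.988) and Arhgap45 (r = 0.979), of 26773 candidates, with log2 fold changes of -0.37, -0.10 and -0.42.

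The wider pathway showed few differences. Of 92 other genes listed for it, 87 had a probe set of their symbol and 81 were tested on the brightest. Of these 2 were nominal and higher and 0 nominal and lower, or 2.47% against the 5.03% of all genes given above. By sign 32 were above 0 and 49 below, with a median log2 fold change of -0.0413. Plcd3, a phospholipase C that makes IP3, had 88.4, 61.4 and 122 after crush, against 52.7, 35.8 and 11.9 in controls. The groups did not overlap, and the log2 fold change was 1.49 (SE 0.46, nominal, adjusted p = 0.642 from limma), with 0.75, 0.78 and 2.93 in the pairs. Control eye 3 was raised to the floor of 16, so that the value of pair 3, and with it the mean, depends on the floor chosen. Itpripl1, named for its likeness to a protein that binds the IP3 receptor, had 55.1, 81.0 and 61.4 after crush, against 47.3, 53.1 and 45.7 in controls. It too had no overlap, with a log2 fold change of 0.42 (SE 0.15, nominal, adjusted p = 0.642 from limma).

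The brightest genes of each group, up to 2 per group, had log2 fold changes between -0.19 and 0.05. Among other channels and pumps of stores (5 tested, 2 above 0 and 3 below), the lysosomal channel gene Mcoln1 had a log2 fold change of 0.03 and Atp2c1, the pump of the Golgi, -0.03. Among store entry channels and their regulators (10 tested, 3 above and 7 below), Saraf, which shuts off store-operated entry, had 5993 ± 622 after crush and 6840 ± 705 in controls (SD, n = 3 each). Its log2 fold change was -0.19 (SE 0.15, adjusted p = 0.725 from limma). In the same group Septin4 had -0.0021. Regulators of the release channels and pumps split evenly (21 tested, 10 above and 11 below), with 0.0052 for Fkbp1a, a binding protein of ryanodine receptors, and -0.03 for Tmbim6 of the reticulum membrane.

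Calcium binding proteins of the store lumen were mostly below 0, with 11 of 13 lower, 0 nominal and a median of -0.0936. Pairs 1, 2 and 3 had medians of -0.0081, -0.258 and 0.0149, and the lower values were mainly those of pair 2, whose crush array stood apart. The chaperone genes Canx and Hspa5 had -0.09 and -0.11. Of the Gq proteins, phospholipases C and enzymes that remove IP3, 12 of 20 were above 0, with 0.05 for Gnaq and 0.04 for Plcb4. Of the genes for mitochondrial uptake and contact sites 9 of 12 were below 0, with -0.01 for Vdac1 and -0.13 for Vdac3, and 0 were nominal. Their medians in pairs 1, 2 and 3 were -0.0016, -0.141 and -0.0151, so here too the lower values were mainly those of pair 2.

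**Figure D4:**
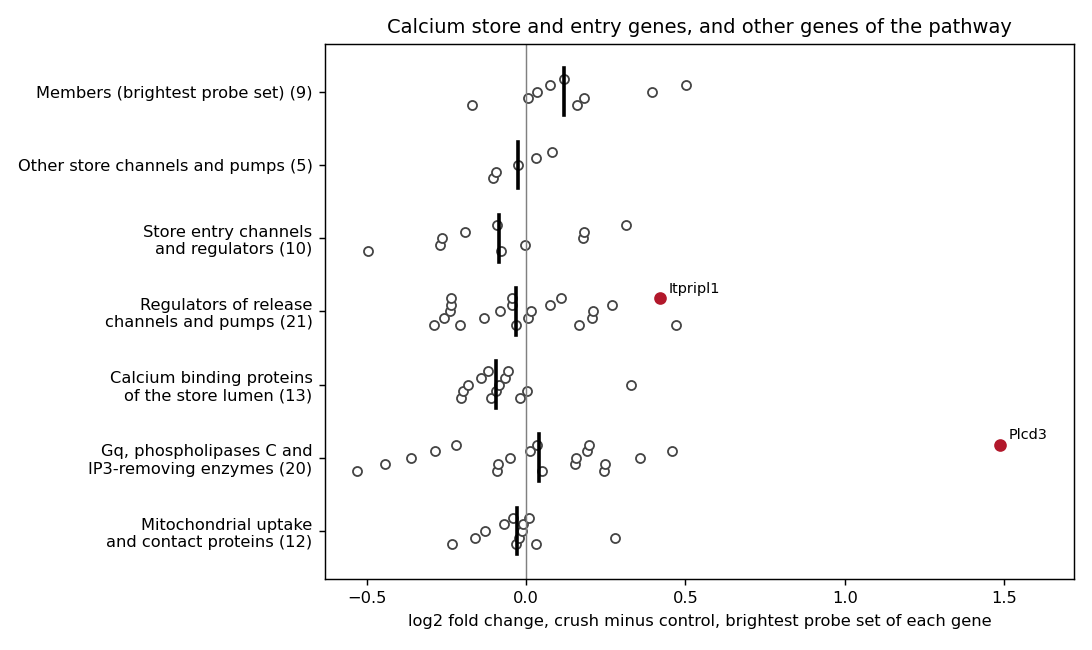
Log2 fold change of crush over control on the x axis for the brightest probe set of each gene, by group, with the number of genes in parentheses and the group's median as a black bar. Filled red symbols are nominal. The members are the calcium store and entry genes of the report, and only Plcd3 (1.49) and Itpripl1 (0.42) are red.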

How the data were processed

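Intensities for 6 arrays, 3 per group, were deposited as linear values per probe set, which the authors made in dChip 2006 with invariant set normalization and the PM/MM model. Probe sets were named through the platform annotation, in which 34958 had 1 symbol, 932 several and 9211 none, and 64 control probe sets were left out. Values below a floor of 16 were raised to it before log2 was taken. Tests used limma 3.58.1 in R 4.3.3 on the 33169 probe sets whose mean reached 40, the eye number being the block, and p values were adjusted over all of these by the Benjamini-Hochberg method. The numbers were taken to pair the samples because controls were fellow eyes. The deviations of same-numbered eyes from their group means correlated at 0.154, 0.125 and 0.297. Eyes of unlike number gave -0.264 to 0.131, the highest for crush eye 1 with control eye 2. These values alone therefore do not single out the pairing. All members are accounted for, with values per array for the brightest probe set of each gene and those at an unadjusted p under 0.05. Other pathway genes were named where nominal, with up to 2 more per group by intensity. Members and lists were chosen with earlier results of these data known. The calculation was tested on simulated data. Alternatives changed the block, floor, filter, scaling, prior, test or arrays, and counting the shared Trpc2 probe sets was added after seeing the data. Array number limits the precision.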

Additional observations from a re-analysis of the deposited data

Results flagged for a closer look

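Probe set 1427251_at of Atp2a2 was left out of the main tests because its mean lay under the minimum. Its mean intensity was 31.6 after crush and 1.17 in controls. It had 2.95, 12.1 and 79.8 in crush eyes 1, 2 and 3, against 1.00, 1.00 and 1.51 in control eyes, so that the array of crush eye 3 alone lay above the floor of 16. On that array the pigment epithelium markers also had their highest sum, 8675, of which Ttr gave 7355. The sum was 2267 to 2811 in the other crush eyes and 854 to 1334 in controls. The part of these markers in this signal was not tested. Probe set 1427251_at was picked out as a signal above the controls in data that the main comparison did not use. With no intensity filter all 26 probe sets were tested, and this one was not nominal. Of the tested probe sets of Atp2a2, 1437797_at was also highest on crush eye 3 (341, against 146 to 199 on the other arrays). The brighter 1416551_at, 1427250_at and 1452363_a_at were not highest on that array.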

How the results depend on the processing

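The count of 4 nominal probe sets became 3 with no replicate block (where Trpc2 1430485_at was lost) or with a floor of 64 (where Ryr2 1421126_at and Trpc2 1430485_at were lost and Ryr2 1450123_at gained), 2 with a mean intensity of at least 100 (16 probe sets tested), and 2 to 5 when a pair or an array was left out. It was 2 without pair 3, without control eye 2 or without control eye 3. Without pair 1 it was 4, but only Trpc2 1430485_at was among the original 4, and all were higher. With no intensity filter and with the methods' t-test it was 4, with Ryr2 1450123_at in place of Trpc2 1430485_at. The count of 2 by the study's criteria was 1 to 3 when a pair or an array was left out (1 without pair 3, crush eye 2 or control eye 3) and 2 in every other setting. Without pair 1 the 2 were Itpr2 1424834_s_at and 1427287_s_at, both higher, and neither of the original 2. Of the calls on named probe sets, dropping the block changed that of Trpc2 1430485_at alone. Over all probe sets the methods' t-test gave 1671 nominal ones, against 2546 with limma, and 321 by the study's criteria, against 1036. Leaving out pairs or arrays gave 1012 to 3840 nominal ones and 376 to 1826 by the criteria.

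Signs of values near 0 turned. Stim1 1448320_at was -0.022 and Stim2 1434219_at was -0.034 after quantile normalization, and Stim2 1434219_at was -0.0025 with the methods' t-test. When a pair or an array was left out, Itpr3 1417297_at ran from 0.025 to 0.28, Ryr3 1427427_at from -0.041 to 0.28, Atp2a2 1416551_at from -0.30 to 0.052, Stim1 1448320_at from -0.23 to 0.36, Stim2 1434219_at from -0.15 to 0.12 and Trpc1 1421096_at from -0.066 to 0.25. The causes were not tested. Of the calls, Itpr2 1424833_at kept its side of the threshold in 18 of 19 settings, Stim1 1436945_x_at in 17 of 19, Ryr2 1421126_at in 12 of 18 and Trpc2 1430485_at in 6 of 18. On each array 6891 to 7233 probe sets lay under the floor, where differences could not be measured.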
